A study of Mus musculus with 12 samples.

Results

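Expression of 10 genes of the TNF receptor family was followed through the differentiation of mouse splenic B cells into plasmablasts. The genes were found in the count table by the Entrez identifier of each symbol, and all 10 were present among 27179 genes. They comprise the 3 receptor genes for the B cell survival factor BAFF (Tnfrsf13c, Tnfrsf13b and Tnfrsf17), the costimulatory receptors Cd40, Cd27 and Tnfrsf18, the TNF receptors Tnfrsf1a and Tnfrsf1b, and the death domain receptors Fas and Tnfrsf21. RNA-seq covered 12 libraries, with 2 biological replicates at each of 6 stages, and total counts ran from 23026619 to 60585587 per library. Every stage came from young adult male C57BL/6 mice. Naive B cells were untreated, isolated by negative selection and sorted as B220+ IgM+ IgDhi cells without TCRβ. Other naive cells were labelled with the division dye CTV and cultured with 25 µg/ml lipopolysaccharide (LPS), a bacterial ligand that drives B cells to divide in the absence of T cells. Activated cells were sorted at 3, 10 and 33 h as CD69+ cells with the highest CTV, which had not yet divided. Expanded B cells, which kept CD22 and lacked CD138, and plasmablasts, which had lost CD22 and gained CD138, were sorted on day 4 from separate LPS cultures begun at a lower cell density. Day and density therefore cannot be told apart between the 33 h and day 4 stages. Between naive cells and 3 h, LPS, culture, the dye and the CD69 gate changed together and cannot be told apart either. The samples are therefore a model of the response to a single stimulus in vitro.

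TNF receptors are surface proteins that bind trimeric ligands and pass the signal to TRAF adaptors or, through a death domain, to caspases. BAFF-R, encoded by Tnfrsf13c, binds BAFF and sustains mature B cells through the alternative NF-κB pathway. TACI, encoded by Tnfrsf13b, binds both BAFF and the related ligand APRIL and is known for limiting B cell numbers and for T cell independent antibody responses. BCMA, encoded by Tnfrsf17, is the receptor through which APRIL sustains long-lived plasma cells.

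Sequence before the annotated start of the 3 BAFF receptor genes is shown because their transcripts moved apart in these cells. RefSeq windows of the 250 bases before the start were available for 9 of the 10 genes, all but Cd40, on GRCm38.p6 (mm10). The Tnfrsf13c window was chr15:82224381-82224630 on the minus strand, the Tnfrsf13b window chr11:61126505-61126754 on the plus strand and the Tnfrsf17 window chr16:11313559-11313808 on the plus strand. The windows of Tnfrsf13b and Tnfrsf17 lie inside the gene spans given further on, because those spans begin upstream of the start that the windows use. The sequences are written 5′ to 3′ on the strand of the gene, and capitals mark every match, on either strand, to 5 motifs. The motifs were GGG and CC separated by any 5 bases (an NF-κB half-site pair), CAGGTG (an E-box), GNGAAAG (a Blimp-1 core), TGACGT (an XBP1 core) and GGAAGT (an ETS core).
Tnfrsf13c: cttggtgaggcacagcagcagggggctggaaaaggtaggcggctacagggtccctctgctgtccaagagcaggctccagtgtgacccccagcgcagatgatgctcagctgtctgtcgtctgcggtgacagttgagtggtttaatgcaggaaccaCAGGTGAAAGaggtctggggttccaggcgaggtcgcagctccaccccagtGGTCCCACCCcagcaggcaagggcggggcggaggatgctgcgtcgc
Tnfrsf13b: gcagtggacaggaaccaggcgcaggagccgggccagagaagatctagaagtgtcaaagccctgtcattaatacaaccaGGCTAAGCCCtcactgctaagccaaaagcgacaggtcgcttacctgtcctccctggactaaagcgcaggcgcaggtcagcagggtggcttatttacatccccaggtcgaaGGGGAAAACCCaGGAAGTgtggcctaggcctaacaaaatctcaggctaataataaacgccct
Tnfrsf17: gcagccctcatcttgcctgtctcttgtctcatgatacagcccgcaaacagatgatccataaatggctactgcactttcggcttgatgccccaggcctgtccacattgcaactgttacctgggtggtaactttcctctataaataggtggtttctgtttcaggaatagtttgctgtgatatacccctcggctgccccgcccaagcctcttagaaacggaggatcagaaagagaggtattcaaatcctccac

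The Tnfrsf13b window held NF-κB letters beginning at −172, −62 and −61 from the start, the last of these on both strands and overlapping the one before it, and an ETS core at −50. The Tnfrsf13c window held NF-κB letters at −46 and an E-box at −96 that overlapped a Blimp-1 core at −93. The Tnfrsf17 window held none of the 5 motifs. Of all 32851 windows of this length, 45.8% held the NF-κB letters, 17.2% the E-box, 19.4% the Blimp-1 core, 6.5% the XBP1 core and 19.7% the ETS core. A match describes the letters of the window and was not tested as a binding site.

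The labels of the cells were checked against marker genes, with levels given as RPKM, read counts scaled by gene length and library size (computed from the deposited counts and gene lengths). The 6 B cell markers were present in every library. Cd22 fell to 0.368 to 0.432 RPKM in plasmablasts, where Sdc1, the gene of CD138, was at 47.6 and 48 RPKM. The sort used the proteins of both genes, so they are not an independent check. Of the other plasmablast markers, Prdm1, Xbp1 and Jchain were highest in plasmablasts. Irf4 was higher at 3 h (709 and 519 RPKM) than in plasmablasts (242 and 290 RPKM). The naive libraries also carried transcripts of other blood cells. Their 9 myeloid markers summed to 419 RPKM in replicate 1 and 172 RPKM in replicate 2, against 1.05 to 11.6 RPKM at the other stages. Their 5 NK markers summed to 8.23 to 11.1 RPKM and the 3 erythroid markers in the table to 137 to 181 RPKM, against at most 0.187 and 1.53 RPKM elsewhere. The 9 T cell markers summed to 34.1 to 37.1 RPKM in naive cells, of which Lck alone gave 29.4 and 32.3 RPKM, and Cd3e was at 0.081 to 0.185 RPKM. These values are set beside the naive levels of several receptors below, and the part of such cells in those levels was not tested. In bulk libraries such as these, fewer cells of a type and less RNA per cell cannot be told apart.

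Differential expression (DE) was called with edgeR's glmTreat against a fold change of 1.5, at a Benjamini-Hochberg adjusted p of 0.05 over all 12750 tested genes. The 10 receptor genes all passed the filter on low counts, Tnfrsf17 through its plasmablast libraries alone. Tnfrsf13c and Tnfrsf13b were the receptor genes with the highest RPKM in naive cells and at 10 h, 33 h and both day 4 stages, whereas Cd40 ranked between them at 3 h. Mean RPKM was highest at 3 h for 5 of the 10 genes, in naive cells for 3 and in plasmablasts for 2.

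Tnfrsf13c was expressed at every stage and peaked 3 h after activation. Its RPKM in replicates 1 and 2 was 313 and 311 for naive libraries, 652 and 560 for those of 3 h, 201 and 189 for those of 10 h, 273 and 258 for those of 33 h, 230 and 238 for expanded libraries, and 256 and 235 for plasmablast libraries. The 3 h libraries stood above all others and the 10 h libraries below all others, while expanded B cells and plasmablasts overlapped. Tnfrsf13c rose 1.94-fold to 3 h (log2 fold change 0.96 ± 0.09 SE, n = 2 per stage, glmTreat adjusted p = 0.00034). It then fell 3.1-fold to 10 h (log2 fold change −1.63 ± 0.09, adjusted p = 2.6e-07). None of the later steps was called, with log2 fold changes of 0.44, −0.18 and 0.07 (SE 0.09 each). From naive cells to plasmablasts the log2 fold change was −0.35 ± 0.09, which is under the 1.5-fold bound. By edgeR's F-test without a fold threshold, 10 h to 33 h (adjusted p = 0.0012) and naive to plasmablast (0.0029) were called.

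Tnfrsf13b moved against Tnfrsf13c at both of the early steps. Its RPKM in replicates 1 and 2 was 196 and 171 for naive libraries, 60.8 and 79.5 for those of 3 h, 389 and 397 for those of 10 h, 343 and 330 for those of 33 h, 323 and 317 for expanded libraries, and 458 and 457 for plasmablast libraries. No stage overlapped another, with 3 h lowest and naive cells next. Tnfrsf13b fell 2.61-fold to 3 h (log2 fold change −1.38 ± 0.11 SE, n = 2 per stage, glmTreat adjusted p = 5.3e-06). It rose 5.58-fold to 10 h (log2 fold change 2.48 ± 0.12, adjusted p = 2.6e-08). The changes at 10 h to 33 h and 33 h to expanded were −0.22 and −0.07 on the log2 scale (SE 0.11) and were not called. The step from expanded B cells to plasmablasts gave 0.52 ± 0.11 (adjusted p = 0.89), where the libraries did not overlap but the change did not pass 1.5-fold. The F-test without a fold threshold called this step (adjusted p = 0.0013). From naive cells to plasmablasts Tnfrsf13b rose 2.49-fold (log2 fold change 1.32 ± 0.11, adjusted p = 7e-06). The order of its highest stages depended on scaling. When libraries were scaled by their size only, without TMM normalization factors, the mean RPKM was 441 at 10 h and 387 in plasmablasts.

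Tnfrsf17 was at or near 0 until the plasmablast stage. Its counts in replicates 1 and 2 were 5 and 1 for naive libraries, 0 and 1 for those of 3 h, 2 and 0 for those of 10 h, 0 and 0 for those of 33 h, 0 and 2 for expanded libraries, and 144 and 199 for plasmablast libraries. In RPKM the plasmablast libraries stood at 7.51 and 8.64, and no other library was above 0.182. The rise from expanded B cells to plasmablasts was called (glmTreat adjusted p = 1.1e-06), as was that from naive cells (log2 fold change 5.99 ± 0.52 SE, n = 2 per stage, adjusted p = 7.8e-07). Since Tnfrsf17 passed the filter through the plasmablast libraries alone, these calls had to come out higher there and are given as a description. As a ratio of CPM (counts scaled to library size), plasmablasts were 184-fold above expanded B cells, with a 95% exact interval from 50.6 to 1526 that covers counting error only. Against 33 h, where both libraries had 0 counts, they were at least 154-fold higher, taking 3 counts over the group as the floor. Among the early stages the changes rested on 6 counts or fewer and none was called.

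**Figure D1:**
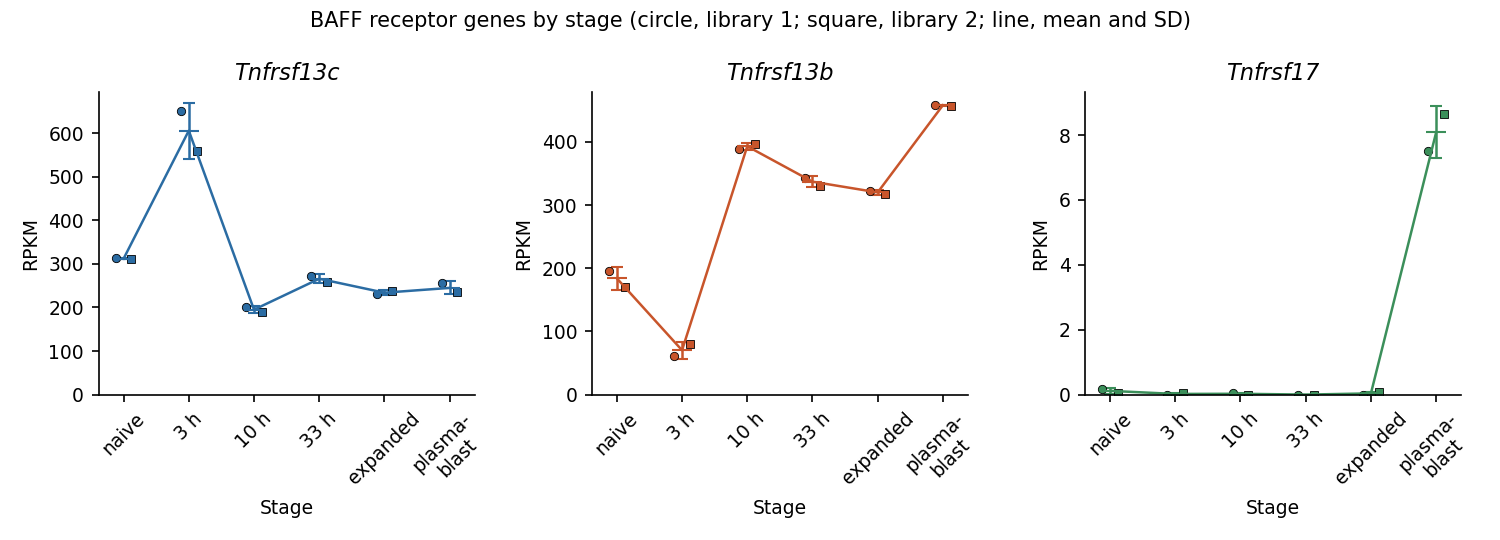
RPKM (linear axes from 0, each gene on its own scale) of Tnfrsf13c, Tnfrsf13b and Tnfrsf17 at 6 stages, with circles for replicate 1, squares for replicate 2 and lines for the mean with SD (n = 2). Tnfrsf13c peaks at 3 h (606 RPKM), where Tnfrsf13b is lowest (70.2 RPKM), and Tnfrsf17 is seen at the plasmablast stage (8.08 RPKM).

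The switch between the 3 genes was measured as the share of each in their summed RPKM, which within a library does not depend on scaling. Tnfrsf13c held 63% ± 2.17 (SD, n = 2) of the sum in naive cells and 89.5% ± 2.76 at 3 h. On the RPKM scale Tnfrsf13b then took the larger share, with 66.8% ± 1.28 by 10 h, 55.9% ± 0.322 by 33 h, 57.8% ± 0.952 for expanded and 64.4% ± 1.23 for plasmablast libraries. Both libraries of each stage lay on the same side of an equal split, and on this scale the larger share passed to Tnfrsf13b between 3 and 10 h. By counts Tnfrsf13c kept the larger share at every stage. Tnfrsf17 held 1.04% and 1.23% in the plasmablast libraries and at most 0.0357% in any other. The ratio of Tnfrsf13b to Tnfrsf13c started at 0.588, dropped to 0.115 by 3 h, reached 2.02 by 10 h, stood at 1.27 by 33 h and 1.37 for expanded libraries, and came to 1.87 for plasmablast libraries (geometric means). The summed level of the 3 genes ran from 496 ± 19 RPKM in naive cells to 711 ± 14.9 RPKM in plasmablasts.

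These shares rest on the gene lengths of the deposited table, and the length of Tnfrsf13b is the least certain of them. The table gives Tnfrsf13b (chr11, 61126283 to 61153170, plus strand) 750 bases, 26.4% of the 2836 bases of its exons in GENCODE M21. For Tnfrsf13c (chr15, 82221742 to 82224380, minus strand) and Tnfrsf17 (chr16, 11313232 to 11320074, plus strand) the figures were 93.1% and 99.6%. By counts rather than RPKM, Tnfrsf13b held 18.8% of the 3 genes before activation, 4.41% by 3 h, 44.2% by 10 h, 33.3% by 33 h, 35% for expanded and 42% for plasmablast libraries. Which gene leads after 10 h depended on length, whereas the low share of Tnfrsf13b at 3 h and its higher share from 10 h on did not. Tnfrsf13b also overlaps the gene Gm12269 on the other strand, and the strand setting of the counting was not given in the sources used here.

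**Figure D2:**
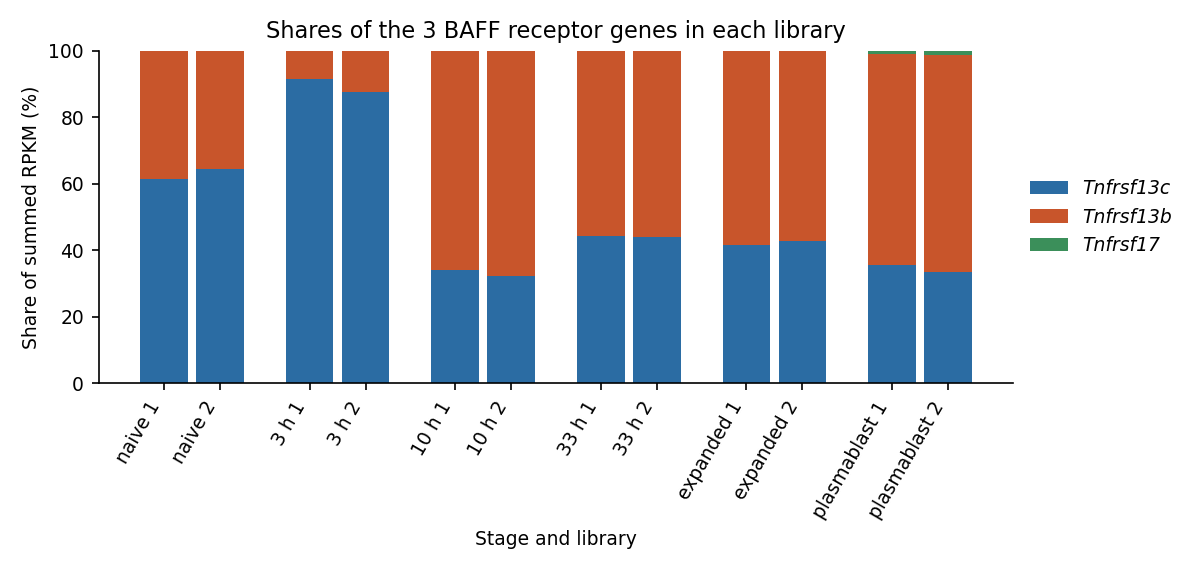
Share (%, linear axis from 0 to 100) of Tnfrsf13c, Tnfrsf13b and Tnfrsf17 in their summed RPKM, 1 stacked bar for each of the 12 libraries. Tnfrsf13c makes up 87.6% and 91.5% at 3 h, Tnfrsf13b at least 55.7% of every library from 10 h on, and Tnfrsf17 is visible in plasmablasts at 1.04% and 1.23%.

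Most of the receptor genes differed between naive cells and 3 h. DE was called for 9 of the 10, with 5 higher and 4 lower, where 45.3% of all tested genes were called (21% higher and 24.3% lower). Tnfrsf17 was the exception. Besides Tnfrsf13c, the 4 that rose were Cd40, Tnfrsf1b, Fas and Tnfrsf21, and besides Tnfrsf13b, the 3 that fell were Cd27, Tnfrsf18 and Tnfrsf1a. Their median log2 fold change was −0.145, against −0.031 over all tested genes. The step from 3 h to 10 h was called for 5 of 10, against 30.8% of all genes (17.4% higher and 13.4% lower). Tnfrsf13b alone rose, and Tnfrsf13c, Cd40, Tnfrsf1b and Fas fell, so 4 of the 5 genes that had risen by 3 h came down again. Both steps use the same 3 h libraries, so opposite moves at them are not independent.

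Cd40 encodes the receptor through which T cell help drives B cell proliferation and germinal centres. Its RPKM in replicates 1 and 2 was 44 and 46.9 for naive libraries, 183 and 185 for those of 3 h, 72.7 and 69.4 for those of 10 h, 67.2 and 64.8 for those of 33 h, 29.3 and 28.4 for expanded libraries, and 4.99 and 4.45 for plasmablast libraries. The libraries of each stage stood apart from those of every other stage. Cd40 rose 4.04-fold to 3 h (log2 fold change 2.02 ± 0.08 SE, n = 2 per stage, glmTreat adjusted p = 3.2e-09). It fell at 3 of the 4 later steps, by 1.37 on the log2 scale to 10 h, by 1.2 to expanded B cells and by 2.61 to plasmablasts (SE 0.08, 0.08 and 0.09, adjusted p = 1e-06, 3e-05 and 2.1e-09). Plasmablasts held 9.64-fold less Cd40 than naive cells (log2 fold change −3.27 ± 0.1, adjusted p = 4.5e-11). The ratio of Tnfrsf13b to Cd40 accordingly went from 4.04 in naive cells to 97.2 in plasmablasts.

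Cd27, whose ligand is CD70 and which marks memory B cells in humans, was scarce throughout. The naive libraries held 61 and 46 counts, and there were between 5 and 20 counts in every later library. In RPKM the naive libraries were at 1.14 and 1.13 and the later ones between 0.104 and 0.286. Cd27 fell to 3 h (log2 fold change −2.94 ± 0.46 SE, n = 2 per stage, glmTreat adjusted p = 0.00025), and no later step was called. The low level in plasmablasts differed from naive cells to a similar extent (log2 fold change −2.52 ± 0.43, adjusted p = 0.00046). Cd27 overlaps Vamp1 on the other strand, and Vamp1 counts went from 333 and 185 in naive cells to 32 and 43 at 3 h. Later Vamp1 counts were 136 and 106 at 10 h and 74 and 40 at 33 h. They were 92 and 76 in expanded and 99 and 83 in plasmablast libraries. The part of Vamp1 reads in the Cd27 counts was not tested. T and NK cells express Cd27. The NK markers were at most 0.187 RPKM in sum after activation, against 8.23 to 11.1 RPKM in naive cells. The T cell markers summed to 34.1 to 37.1 RPKM in naive cells and 10.5 to 19.6 RPKM from 3 h to the expanded stage. In plasmablasts they summed to 28.8 to 31.3 RPKM, with Cd28 at 20.3 and 23.1 RPKM and Cd3e at 0. Cd3g was at 1.37 and 0.931 RPKM there, above its 0.433 and 0.455 RPKM in naive cells. Lck, Cd3d, Cd4 and Cd5 were also detected in plasmablasts, below their naive levels. The part of either cell type in the fall of Cd27 was not tested.

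Tnfrsf18 encodes GITR, best known as a costimulatory receptor of T cells. Its RPKM in replicates 1 and 2 was 18.7 and 18.8 for naive libraries, 8.47 and 7.37 for those of 3 h, 6.81 and 6.07 for those of 10 h, 4.85 and 3.31 for those of 33 h, 4.47 and 4.38 for expanded libraries, and 6.56 and 7.01 for plasmablast libraries. Only the naive libraries stood well above the rest, and 10 h overlapped plasmablasts. Tnfrsf18 fell 2.38-fold to 3 h (log2 fold change −1.25 ± 0.17 SE, n = 2 per stage, glmTreat adjusted p = 0.0007). The later steps gave −0.29, −0.64, 0.1 and 0.62 on the log2 scale, and none was called. Plasmablasts remained 2.76-fold below naive cells (adjusted p = 7.7e-05). Gm16008, which overlaps Tnfrsf18 on the other strand, had at most 4 counts in any library. The T cell markers summed to 34.1 to 37.1 RPKM in the naive libraries, with Lck at 29.4 and 32.3 RPKM and Cd3e at 0.185 and 0.081 RPKM, and their part in the naive level of Tnfrsf18 was not tested.

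Tnfrsf1a and Tnfrsf1b encode the pair of receptors for TNF, of which only the first carries a death domain. Tnfrsf1b was the dominant one at every stage. Its RPKM in replicates 1 and 2 was 11.1 and 9.82 for naive libraries, 57.9 and 59.4 for those of 3 h, 18.3 and 19.1 for those of 10 h, 15.4 and 16.3 for those of 33 h, 11.7 and 12.5 for expanded libraries, and 12.6 and 12.3 for plasmablast libraries. The 3 h libraries were far above the rest, and the day 4 populations overlapped. Tnfrsf1b rose 5.62-fold to 3 h (log2 fold change 2.49 ± 0.09 SE, n = 2 per stage, glmTreat adjusted p = 6.9e-10) and fell 3.14-fold to 10 h (log2 fold change −1.65 ± 0.09, adjusted p = 1.9e-07). No later step was called, and plasmablasts differed from naive cells by 0.25 ± 0.09 on the log2 scale.

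Tnfrsf1a was at 0 counts by 3 h and was detected again above a few counts in plasmablasts. Its counts in replicates 1 and 2 were 103 and 45 for naive libraries, 0 and 0 for those of 3 h, 0 and 2 for those of 10 h, 0 and 3 for those of 33 h, 1 and 1 for expanded libraries, and 21 and 21 for plasmablast libraries. The naive and plasmablast libraries stood apart from the stages between, which overlapped one another. The fall to 3 h was called (glmTreat adjusted p = 3.6e-05) and, against a floor of 3 counts over the group, amounted to at least a 44.1-fold lower level. The rise from expanded B cells to plasmablasts was also called (adjusted p = 0.002), with a CPM ratio of 22.5 (95% exact interval 5.86 to 192, counting error only). Even there Tnfrsf1a reached 0.413 and 0.344 RPKM, and Tnfrsf1b exceeded it 33.1-fold.
The naive level of Tnfrsf1a was 1.41 RPKM in replicate 1 and 0.81 RPKM in replicate 2. Replicate 1 was also the library with more myeloid transcripts, such as Lyz2 at 141 against 60.2 RPKM. Myeloid cells express Tnfrsf1a, and their part in its naive level was not tested. Without naive replicate 1 the fall to 3 h kept its direction, but replicate 2 carried myeloid transcripts too. Leaving out replicate 1 therefore cannot show their part. The difference between naive cells and plasmablasts (log2 fold change −1.57 ± 0.47, adjusted p = 0.029) was lost without naive replicate 1 (adjusted p = 0.23), without plasmablast replicate 1 (0.082) or replicate 2 (0.15), and under DESeq2 (0.34).

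Fas and Tnfrsf21, which encode CD95 and death receptor DR6, rose early like Cd40 and Tnfrsf1b. The RPKM of Fas in replicates 1 and 2 was 2.25 and 2.45 for naive libraries, 17.1 and 12.1 for those of 3 h, 6.38 and 3.99 for those of 10 h, 3.02 and 1.85 for those of 33 h, 3.47 and 3.08 for expanded libraries, and 2.68 and 2.76 for plasmablast libraries. Its replicates were less alike than those of the other abundant receptors from 3 to 33 h, although 3 h stayed clear of every other stage. Fas rose 6.17-fold to 3 h (log2 fold change 2.63 ± 0.27 SE, n = 2 per stage, glmTreat adjusted p = 7.1e-06), then fell 2.78-fold to 10 h (−1.48 ± 0.25, adjusted p = 0.0023). Between 10 and 33 h the log2 fold change was −1.07 ± 0.26 (adjusted p = 0.07). It was called without replicate 2 at 10 h (adjusted p = 0.019) or replicate 1 at 33 h (0.021), and also with library size alone (0.047), with no filter on low counts (0.013), with the replicate number as a block (0.031) and by the F-test without a fold threshold (0.0045). Plasmablasts were close to naive cells, at a log2 fold change of 0.21 ± 0.28.

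The RPKM of Tnfrsf21 in replicates 1 and 2 was 2 and 2.32 for naive libraries, 5.5 and 6.34 for those of 3 h, 3.48 and 3.19 for those of 10 h, 3.63 and 3.49 for those of 33 h, 1.09 and 0.952 for expanded libraries, and 0.514 and 0.379 for plasmablast libraries. No 2 stages overlapped. Tnfrsf21 rose 2.75-fold to 3 h (log2 fold change 1.46 ± 0.15 SE, n = 2 per stage, glmTreat adjusted p = 3.8e-05). The step to 10 h was −0.83 ± 0.15 (adjusted p = 0.056), and it was called without replicate 1 at 3 h (adjusted p = 0.032) and with DESeq2's size factors (0.023). Tnfrsf21 fell 3.48-fold between 33 h and expanded B cells (adjusted p = 3.9e-05) and 2.31-fold between expanded B cells and plasmablasts (adjusted p = 0.0049). The last call was lost without plasmablast replicate 2 (adjusted p = 0.094) and under DESeq2 (0.062). Plasmablasts were 4.86-fold below naive cells (adjusted p = 8.8e-07).

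**Figure D3:**
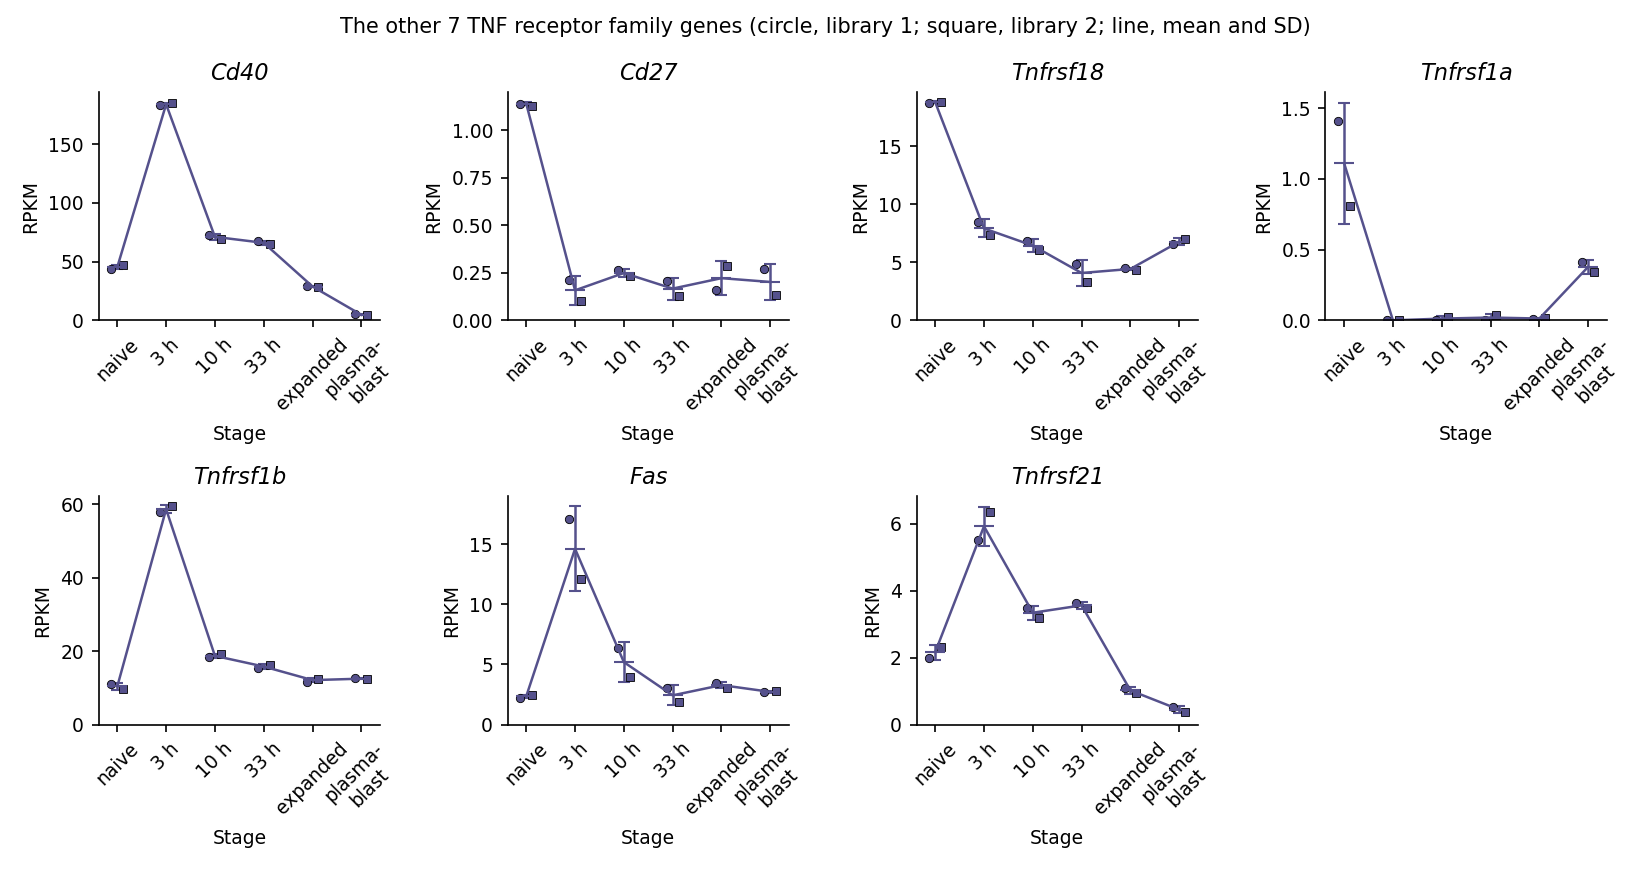
RPKM (linear axes from 0, each gene on its own scale) of the other 7 receptor genes at 6 stages, with circles for replicate 1, squares for replicate 2 and lines for the mean with SD (n = 2). Cd40, Tnfrsf1b, Fas and Tnfrsf21 peak at 3 h (184, 58.6, 14.6 and 5.92 RPKM), whereas Cd27, Tnfrsf18 and Tnfrsf1a are highest in naive cells (1.14, 18.8 and 1.11 RPKM).

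The later steps touched fewer of the receptor genes. Between 10 and 33 h glmTreat called 0 of 10, against 14.5% of all tested genes (10.1% higher and 4.45% lower). At an unadjusted p under 0.05 the test gave 1 gene, Fas, while DESeq2 called 0 and the F-test without a fold threshold 4, against 45.5% of all genes. Between 33 h and expanded B cells 2 of 10 were called, Cd40 and Tnfrsf21, both lower, against 10.6% of all genes (6.94% higher and 3.66% lower). The separation of plasmablasts from expanded B cells involved 4 of 10, against 26.1% of all genes (13.9% higher and 12.2% lower). Tnfrsf17 and Tnfrsf1a were higher, and Cd40 and Tnfrsf21 fell. Leaving out Tnfrsf17, which passed the filter through its plasmablast libraries alone, the count was 3 of 9. From naive cells to plasmablasts 7 of 10 were called, against 50% of all genes (26.6% higher and 23.4% lower), with Tnfrsf13b and Tnfrsf17 higher and Cd40, Cd27, Tnfrsf18, Tnfrsf1a and Tnfrsf21 lower. Without Tnfrsf17 it was 6 of 9. Naive cells serve as a group both here and in the first step, and plasmablasts both here and in the step before, so these counts share libraries.

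**Figure D4:**
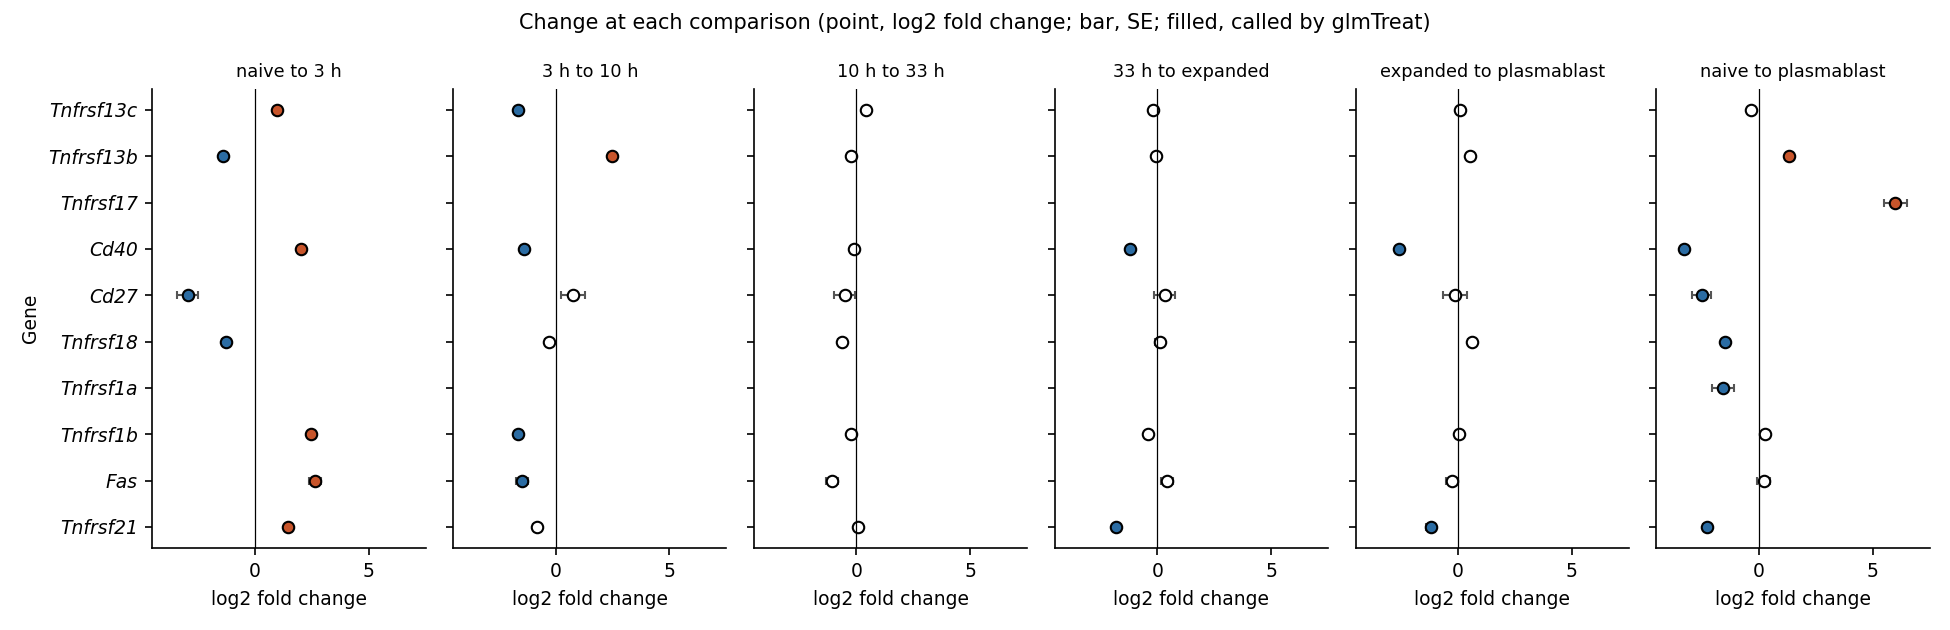
Log2 fold change with SE (horizontal axis) of each receptor gene (rows) at 6 comparisons (panels), filled where called by glmTreat, red for higher and blue for lower, and open where not called. Values with a stage at or under 3 counts in both libraries are left out, and Tnfrsf13c and Tnfrsf13b lie on opposite sides of 0 at naive to 3 h (0.96 and −1.38) and 3 h to 10 h (−1.63 and 2.48).

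Other genes of the pathway were taken from a list of 66 ligands, adaptors and receptors, of which 55 were tested. DE was called for 31 of the 55 between naive cells and 3 h (19 higher, 12 lower) and for 27 between 3 h and 10 h (8 higher, 19 lower). The later steps gave 12, 11 and 19, and naive cells to plasmablasts gave 24. In percent these were 56.4, 49.1, 21.8, 20, 34.5 and 43.6, in the order of the comparisons, against 45.3, 30.8, 14.5, 10.6, 26.1 and 50 of all tested genes.

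**Figure D5:**
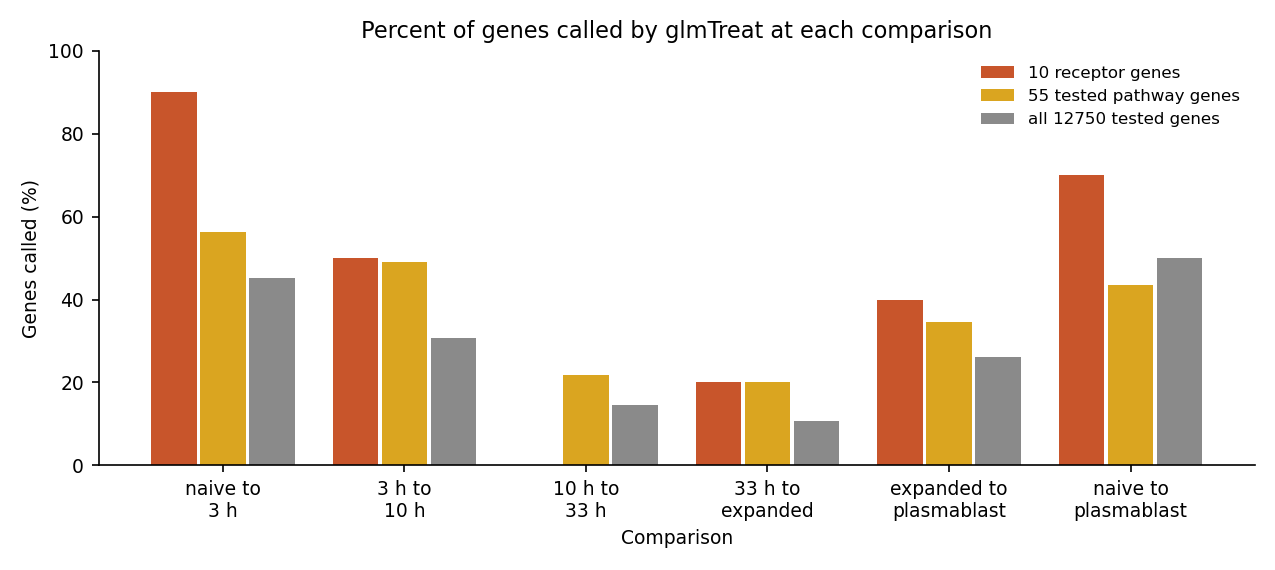
Percent of genes called by glmTreat (vertical axis from 0) at 6 comparisons, for the 10 receptor genes, the 55 tested pathway genes and all 12750 tested genes. The receptor genes reach 90% at naive to 3 h and 0% at 10 h to 33 h.

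The ligands of the BAFF receptors were barely detected in the B cells themselves. Tnfsf13b, the gene of BAFF, was at 0.23 RPKM or less in every library and Tnfsf13, the gene of APRIL, at 0.158 RPKM or less, and neither was tested. Cd40lg, the ligand of CD40, was likewise at 0.0945 RPKM or less. Of the 12 ligand genes tested, 8 fell and 2 rose between expanded B cells and plasmablasts, with a median log2 fold change of −3.03 against −0.046 over all genes, of which 26.1% were called (13.9% higher and 12.2% lower). Most of those ligands were expressed below 2 RPKM. Cd70 was at 1.34 and 1.57 RPKM in expanded libraries and at most 0.42 RPKM elsewhere. Tnfsf18 was at 0.8 and 1.04 RPKM in plasmablast libraries and at most 0.32 RPKM elsewhere. A gene that passes the filter through either stage alone has to come out higher there. The 8 falls and 2 rises are therefore given as a description. Tnf, Lta and Ltb were higher at 3 h than at either stage. With at least 10 counts required in every library, 2 ligand genes were tested and 1 was called, with a smaller median fall. Tnf, the ligand of Tnfrsf1a and Tnfrsf1b, rose from 1.6 to 30.4 RPKM by 3 h (log2 fold change 4.25 ± 0.19 SE, n = 2 per stage, glmTreat adjusted p = 1.6e-09). It was at 0.15 RPKM in plasmablasts, after a fall of 4 on the log2 scale from expanded B cells (adjusted p = 7.5e-07). Ltb, a subunit of lymphotoxin, was at 867 RPKM in naive cells and 724 at 3 h, and fell to 194 at 10 h (log2 fold change −1.9 ± 0.21, adjusted p = 0.00013).

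Of 24 adaptor and regulator genes tested, 9 rose and 5 fell to 3 h, and 3 rose and 8 fell from there to 10 h, where 45.3% and 30.8% of all tested genes were called. Among those at an average log2 CPM of at least 3, Traf1 and Tnfaip3 had the largest rises to 3 h. Traf1, which binds Tnfrsf1b together with TRAF2, went from 8.23 to 207 RPKM (log2 fold change 4.65 ± 0.1 SE, n = 2 per stage, glmTreat adjusted p = 1e-11). Tnfaip3, which encodes the NF-κB inhibitor A20, went from 10 to 198 RPKM (4.3 ± 0.21, adjusted p = 1.5e-08). Traf3ip3 and Traf5 fell at the same step, from 86 to 11.3 and from 46.9 to 7.17 RPKM. The alternative NF-κB arm, through which BAFF-R signals, had 5 genes tested, with 2 higher and 1 lower by 3 h and 2 lower by 10 h, against the same shares of all genes. Nfkb2 rose from 112 to 420 RPKM and Relb from 58.3 to 183 RPKM by 3 h (log2 fold changes 1.91 ± 0.09 and 1.65 ± 0.11, adjusted p = 1.2e-08 and 3e-07). Both fell at 10 h, to 154 and 72.4 RPKM. Map3k14, which encodes the NF-κB inducing kinase NIK, moved the other way between naive cells and 3 h. It started at 23.7 RPKM and dropped to 11.1 RPKM by 3 h (log2 fold change −1.11 ± 0.17, adjusted p = 0.0028). Its mean at 10 h was 6.62 RPKM, below 3 h as for Nfkb2 and Relb. In plasmablasts it was at 0.852 RPKM (−4.79 ± 0.21 from naive cells, adjusted p = 7e-10). The plasmablast means of Nfkb2 and Relb, 48.3 and 39.3 RPKM, were also below those of naive cells. Of the 14 other TNF receptor genes tested, 5 rose and 5 fell between naive cells and 3 h, and 2 rose and 5 fell between 3 and 10 h, again beside 45.3% and 30.8% of all tested genes.

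Genes with the pattern most like each BAFF receptor gene were found by Pearson's r of log2 CPM over the 12 libraries, which share stages, so that r is given as a description. For Tnfrsf13c they were Sipa1l1 (0.978), Pitpna (0.971) and Zfand3 (0.962). For Tnfrsf13b they were Anapc11 (0.985), Smim11 (0.981) and Phpt1 (0.979), each of them lowest at 3 h, with Phpt1 at 12.3 RPKM there and 50.3 RPKM at 10 h. For Tnfrsf17 they included Gnptg (0.982) and Os9 (0.981), and Os9 reached 333 RPKM in plasmablasts, from 44.6 to 72 RPKM at the other stages.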

How the data were processed

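RNA-seq of 12 libraries was analysed. The authors prepared TruSeq libraries from poly(A) RNA, sequenced 81 bp paired-end reads on a NextSeq, mapped them on mm10 using Rsubread, and obtained counts per Entrez gene from featureCounts with the annotation built into it. What was deposited is this count table, neither normalized nor filtered, with a length for each gene. Per the labels, CASAVA 1.8.2 was also used. Whether counting used strand, or counted each pair once, was not given in the sources used here. The 12 files of single libraries equalled it.

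Of 27179 genes, 25275 were matched to RefSeq and 23700 were kept after removal of genes without a match and of rRNA, X and Y, mitochondrial and variable immunoglobulin genes, which left 84.0% to 90.6% of the counts. filterByExpr kept 12750. In R 4.3.3 with edgeR 4.0.16 (limma 3.58.1), libraries were scaled with TMM and fitted in a one-way layout over all 12 with robust quasi-likelihood dispersions. glmTreat tested each consecutive step, and naive cells against plasmablasts, against 1.5-fold with Benjamini-Hochberg adjustment at 0.05 (two-sided). With 2 against 2, an exact permutation test cannot go below p = 0.333, so none was used. RPKM used TMM-scaled library sizes. A count of 0 allows up to 3 counts, and intervals cover counting error only. The fits were tested on simulated data.

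All 10 receptor genes are named. Of the pathway lists, the called genes with the largest rise and fall (up to 2 each per list and comparison) at an average log2 CPM of at least 3 were eligible, and a selection of them is given, with genes of the BAFF and CD40 ligands added. Similar genes are the 3 with the highest r above the same level, with a prior count of 2, of which 1 is left out of the text. The receptor genes, lists and motifs were chosen with earlier results of these data known. The alternatives tried were scaling by DESeq2's size factors or by library size alone, DESeq2 1.42.0, the F-test, no filter or 10 counts in every library, a replicate block, the 4 libraries compared, keeping all genes, and leaving out each library.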

Additional observations from a re-analysis of the deposited data

How the results depend on the processing

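Over all alternatives the receptor genes gave 755 results, of which 714 kept their direction and their side of the threshold, 17 gained a call, 6 lost one and 18 changed sign or went to 0. None of those 18 was called in either fit. With library size alone, 5 changed sign on the log2 scale, namely expanded to plasmablast for Tnfrsf13c (−0.272) and Tnfrsf1b (−0.292), naive to plasmablast for Tnfrsf1b (−0.031) and Fas (−0.071), and 3 h to 10 h for Tnfrsf18 (0.041). Leaving out single libraries changed the sign of 10 and brought 3 to 0. The log2 fold change of Tnfrsf17 then ran from −2.689 to 2.892 at 3 h to 10 h, −3.625 to 0 at 10 h to 33 h and 0 to 4.11 at 33 h to expanded. That of Tnfrsf1a ran from 0 to 3.907, −2.891 to 3.317 and −1.523 to 3.088 at the same steps. Cd27 ran from −0.132 to 0.771 at 33 h to expanded and −0.666 to 0.323 at expanded to plasmablast, Tnfrsf18 from −0.135 to 0.416 at 33 h to expanded, and Tnfrsf1b from −0.004 to 0.089 at expanded to plasmablast. The 6 losses concern Tnfrsf1a (naive to plasmablast) and Tnfrsf21 (expanded to plasmablast), and of the 17 gains, 10 came from the F-test, which has no fold threshold. That test called 9052, 7942, 5798, 5053 and 7256 genes at the 5 consecutive steps, 4 of the 10 receptor genes at 10 h to 33 h, and 33, 32 and 33 pathway genes at the last 3 steps. For 33 h to expanded, DESeq2 called 895 genes and the minimum of 10 counts in every library 712, against 1352, and leaving out single libraries gave 855 to 1384, with the lowest without replicate 1 at 33 h. The receptor genes called at 10 h to 33 h were 0 in the main test and 1 with library size alone, 1 with no filter and 0 to 1 when single libraries were left out, and the gene was Fas in each case. The minimum of 10 counts removed Tnfrsf17, Tnfrsf1a and Cd27, and with it 2 receptor genes were called at expanded to plasmablast and 4 at naive to plasmablast. The same minimum left 16 pathway genes called at 3 h to 10 h, 5 at 10 h to 33 h, 2 at 33 h to expanded, 6 at expanded to plasmablast and 14 at naive to plasmablast. DESeq2 called 7 pathway genes at 10 h to 33 h, and leaving out single libraries gave 7 to 12 there (lowest without replicate 1 at 10 h) and 7 to 14 at 33 h to expanded (lowest without replicate 1 at 33 h). By counts in place of RPKM the share of Tnfrsf13b was 18.8%, 4.41%, 44.2%, 33.3%, 35% and 42% from naive cells to plasmablasts. Apart from the filter and the missing fold threshold, whose effect follows from their construction, the cause of these shifts was not tested.

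Library size alone moved the median log2 fold change of all genes from -0.031, 0.018, -0.046 and 0.023 to -0.24, 0.348, -0.384 and -0.259 at naive to 3 h, 3 h to 10 h, expanded to plasmablast and naive to plasmablast. The split of higher and lower genes became 2091 and 3716, 3432 and 1004, 1181 and 2953, and 2730 and 3884, against 2674 and 3100, 2221 and 1711, 1776 and 1553, and 3386 and 2985. Replicate numbers gave no sign of pairing, with 0 of 15 correlations between stages over 0.1 (-0.139 to 0.0841). The highest was that of expanded B cells with plasmablasts. Low correlations cannot show whether animals or cultures were shared. With a replicate block, 1 receptor gene was called at 10 h to 33 h (Fas, adjusted p = 0.031), and the counts of genes called ran from 1332 to 6357, against 1352 to 6371. Fits to only the 4 libraries compared gave no value for 7 receptor gene comparisons. Depth limits Tnfrsf17, Tnfrsf1a and Cd27, which had few or no counts at most stages.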
